A study of Rattus norvegicus with 6 samples.

Results

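The miR-30 family was followed here as 9 mature miRNAs in cultured rat cortical neurons. They were chosen by name: rno-miR-30a-5p, rno-miR-30a-3p, rno-miR-30b-5p, rno-miR-30c-5p, rno-miR-30c-2-3p, rno-miR-30d-5p, rno-miR-30d-3p, rno-miR-30e-5p and rno-miR-30e-3p. These are 9 of the 649 mature miRNAs counted. All 9 were among the 336 miRNAs that reached a mean of 10 RPM (reads scaled to a library of 1e6 counts) in the control or the BDNF group, which were the miRNAs tested. Small RNA was sequenced from 6 samples of neurons prepared from embryonic day 18 Sprague-Dawley rats and kept for 7 days in vitro. The control group (n = 3) received the vehicle, 0.1% BSA, and the BDNF group (n = 3) received 100 ng/ml brain-derived neurotrophic factor, both for 20 min. Samples in each group carry replicate numbers 1 to 3. Per the study's methods, the cultures of both groups were also given a drug that stops the division of non-neuronal cells.

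MicroRNAs guide Argonaute proteins to partly complementary sites in messenger RNAs, mostly through the seed, and the bound mRNA is less translated and less stable. Each precursor hairpin can give a mature strand from its 5p arm and another from its 3p arm. The 5p strands of the miR-30 family share a seed and are abundant in many tissues, and in the brain miR-30a-5p is known as a regulator of Bdnf mRNA, which encodes the neurotrophin used here as the stimulus. Only miRNAs were counted in these samples, so no value here bears on Bdnf mRNA itself.

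The mature sequences are shown because the seed sets which members can share targets, and near-identical strands are hard to tell apart by their reads. RefSeq (GRCr8) sequences were matched by name for 5 of the 9 members, and rno-miR-30b-5p, rno-miR-30d-5p, rno-miR-30d-3p and rno-miR-30e-3p are given by name only. Each is written 5′ to 3′ with the seed, bases 2 to 8, in capitals, first for the 5p arms and then for the 3p arms.
rno-miR-30a-5p: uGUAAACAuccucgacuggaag
rno-miR-30c-5p: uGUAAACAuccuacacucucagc
rno-miR-30e-5p: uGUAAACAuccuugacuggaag
rno-miR-384-5p, outside the family: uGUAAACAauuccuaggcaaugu
rno-miR-30a-3p: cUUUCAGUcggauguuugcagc
rno-miR-30c-2-3p: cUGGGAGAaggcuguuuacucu
rno-miR-30c-1-3p, not a member: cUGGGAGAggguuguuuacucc

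The 5p sequences have the same seed, GUAAACA. MiR-30a-5p and miR-30e-5p differ at 1 base, C13U, counted from the 5′ end with the base of miR-30a-5p first. MiR-30a-5p and miR-30c-5p differ at 5 of 22 bases. MiR-384-5p is identical to the 5p arms up to base 8 and differs from miR-30a-5p at 10 of 22 bases. The 3p arms carry other seeds: UUUCAGU in miR-30a-3p and UGGGAGA in miR-30c-2-3p, the latter shared with miR-30c-1-3p. Because Miraligner, the program that assigned the reads, accepts a mismatch, and how it treated reads that fit more than 1 strand is not given in the sources used here, the split of counts between near-identical strands such as miR-30a-5p and miR-30e-5p is uncertain.

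In GRCr8, the miR-30a strands lie at chr9:33233946-33233967 (5p) and chr9:33233987-33234008 (3p), both on the plus strand. MiR-30c-5p is encoded by both Mir30c1 (chr5:139634505-139634527, minus strand) and Mir30c2 (chr9:33253695-33253717, plus strand), so its count cannot be divided between these precursors. Its 3p strands are specific: miR-30c-2-3p lies at chr9:33253735-33253756 (plus strand) and miR-30c-1-3p at chr5:139634467-139634488 (minus strand). MiR-30e-5p lies at chr5:139637504-139637525 (minus strand). The annotation places the genes in pairs with no other gene wholly between them: Mir30a with Mir30c2, Mir30e with Mir30c1, both inside the protein-coding gene Nfyc, and Mir30b with Mir30d, both inside a long non-coding RNA gene.

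Library sizes lay between 10374120 and 12533029 counts, so that 10 RPM stood for 104 to 125 reads. All 5 neuronal marker miRNAs were detected above the filter, led by miR-9a-5p at 230892 to 356895 and including miR-124-3p at 4854 to 6058 normalized RPM (RPM after TMM scaling). Of the markers of other cell types, miR-21-5p, known from glia and reactive cells, was the highest at 5154 to 8064 normalized RPM. MiR-146a-5p, the other listed marker of such cells, was at only 10.3 to 19.1 normalized RPM. The oligodendrocyte lineage, endothelial, muscle and liver lists each summed to at most 105 normalized RPM. The 4 blood and microglia markers analysed, all below the filter, summed to 4.34 to 9.50 normalized RPM. MiR-223-3p, also on that list, was not among the miRNAs counted. In bulk samples, fewer cells of a type and less RNA per cell cannot be told apart. The study's methods call the 3 samples of a group biological replicates, and the labels give only their numbers.

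The 5p arms were the abundant strands. Their 5 members together took 5.31%, 4.89% and 5.42% of all counts in control replicates 1 to 3 and 5.02%, 4.89% and 5.09% in BDNF replicates 1 to 3. The groups overlapped, with means of 5.20% ± 0.279 and 5.00% ± 0.104 (SD, n = 3 each). The 4 members of the 3p arms took 0.223%, 0.214% and 0.192% of all counts in the controls and 0.218%, 0.217% and 0.201% in the BDNF samples, again overlapping. Summed RPM of miRNAs with a matched sequence, grouped by seed, placed GUAAACA at rank 5 of 487 seeds with 33298 RPM, directly below CCCUGAG (miR-125b-5p, miR-125a-5p and miR-351-5p, 46267 RPM) and above GGAAGAC (miR-7a-5p and miR-7b, 23323 RPM). That sum includes miR-384-5p and leaves out miR-30b-5p and miR-30d-5p, whose sequences were not matched. Sequences were matched for 582 of the 649 miRNAs, with 93.8% of all counts, so other seeds may lack strands as well. The order of neighbouring seeds is thus that of matched sequences only. The summed 5p arms of all 5 members would rank 4, above CCCUGAG, against the other seeds as matched. Unmatched strands were added back only for the miR-30 family, so this comparison is uneven. The seeds of miR-30a-3p and miR-30c-2-3p ranked 65 and 96.

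**Figure D1:**
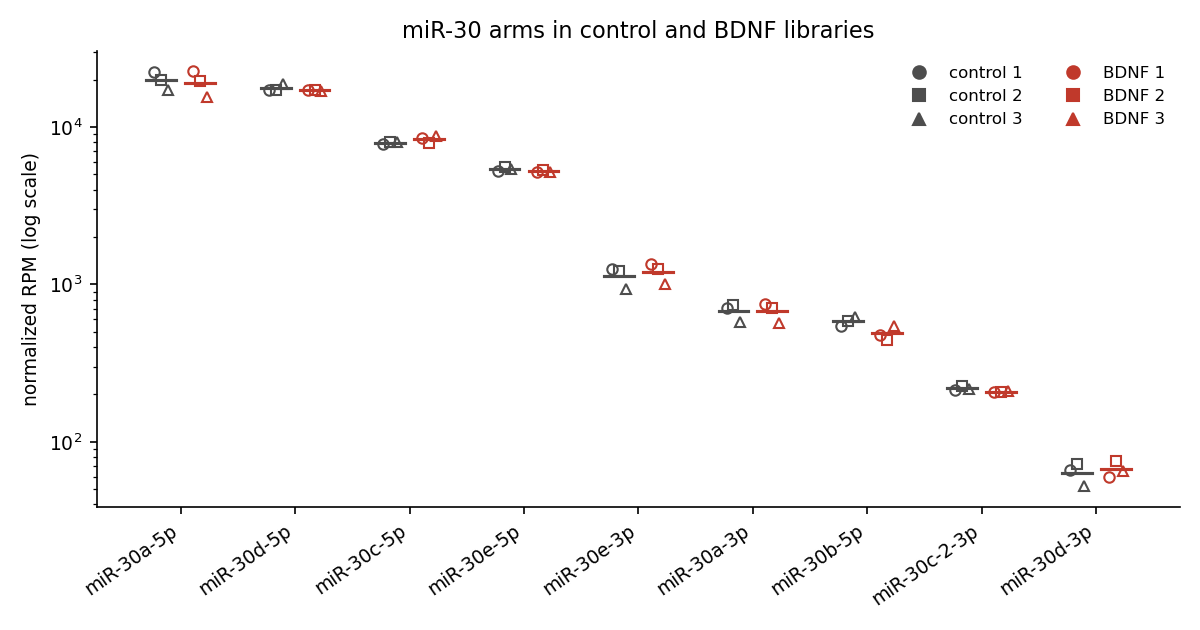
Normalized RPM (log axis) of the 9 members in each of the 6 samples, with points for samples and a horizontal line for the mean of each group (3 control, 3 BDNF). Levels run from 15509 to 22561 normalized RPM for miR-30a-5p down to 52.3 to 75.9 for miR-30d-3p, and control and BDNF ranges overlap for each member except miR-30c-2-3p.

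By mean level, miR-30a-5p ranked 11 and miR-30d-5p ranked 12 of the 649 miRNAs. In control replicates 1 to 3, miR-30a-5p stood at 22513, 19942 and 17178 normalized RPM, and in BDNF replicates 1 to 3 at 22561, 19489 and 15509. MiR-30d-5p stood at 17289, 17121 and 18920 in the controls and at 17269, 17189 and 16961 in the BDNF samples. MiR-30a-5p was the higher of the pair in 4 of 6 samples, and their ranges overlapped. MiR-30c-5p, at rank 22, had 7845, 8009 and 7992 normalized RPM in the controls and 8539, 7880 and 8757 in the BDNF samples. MiR-30e-5p, at rank 26, had 5264, 5571 and 5391 in the controls and 5215, 5347 and 5174 in the BDNF samples. These 4 strands were separated from the rest of the family, and the ranges of miR-30c-5p and miR-30e-5p overlapped neither each other nor those of the leading pair.

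The remaining 5p strand, miR-30b-5p, ranked only 103, below both 3p strands that followed the abundant group. MiR-30e-3p, at rank 66, had 1256, 1210 and 929 normalized RPM in the controls and 1341, 1252 and 1009 in the BDNF samples. MiR-30a-3p, at rank 95, had 710, 738 and 576 in the controls and 747, 706 and 571 in the BDNF samples. The range of miR-30a-3p overlapped that of miR-30b-5p, and miR-30a-3p was the higher in 5 of 6 samples. MiR-30b-5p itself had 543, 589 and 623 normalized RPM in the controls and 479, 442 and 543 in the BDNF samples. The highest BDNF sample thus sat just above the lowest control, 543.1 against 542.7 normalized RPM, so the groups overlapped by that margin.

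The rarest members were 3p strands. MiR-30c-2-3p, at rank 142, had 213, 227 and 217 normalized RPM in the controls and 207, 206 and 210 in the BDNF samples, and every BDNF sample lay below every control. On RPM without TMM scaling its ranges overlapped, 211 to 234 in controls and 192 to 227 in BDNF samples. MiR-30d-3p, at rank 208, had 66.4, 72.5 and 52.3 in the controls and 59.7, 75.9 and 65.4 in the BDNF samples, overlapping widely. Of the strands of the same precursors that are not members, miR-30b-3p had 33.5 to 49.3 and miR-30c-1-3p 26.9 to 39.6 normalized RPM over the 6 samples.

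BDNF against control asks whether 20 min of the neurotrophin altered the amount of any strand. No member passed the edgeR quasi-likelihood test at an unadjusted p of 0.05 (0 of 9), beside 2.98% of the 336 miRNAs tested. After Benjamini-Hochberg adjustment the count was 0 of 9, beside 0% of all miRNAs tested. Log2 fold changes of the members ran from -0.26 (miR-30b-5p) to 0.08 (miR-30e-3p), with a median of -0.04 beside -0.0015 for all miRNAs tested. The median size of the change, without its sign, was 0.072 in the members and 0.092 in all miRNAs tested, and 6 of 9 members and 171 of 336 miRNAs had values below 0. DESeq2 and limma-voom also placed 0 of 9 members at an unadjusted p of 0.05, beside 12 and 11 of the 336 miRNAs.

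For miR-30a-5p, the leading strand, the group means were 19878 ± 2668 and 19186 ± 3536 normalized RPM (control and BDNF, SD, n = 3 each). The log2 fold change was -0.05, with a 95% interval from -0.45 to 0.35. MiR-30d-5p had means of 17777 ± 994 and 17140 ± 160 normalized RPM and a log2 fold change of -0.05 (interval -0.27 to 0.16). MiR-30c-5p and miR-30e-5p gave log2 fold changes of 0.08 (interval -0.13 to 0.29) and -0.04 (interval -0.24 to 0.15). For these 4 abundant strands, differences within those intervals could not be told from 0 in this fit of 3 samples against 3 without the pairs. With the replicate number as a block, the interval of miR-30a-5p was narrower, from -0.21 to 0.09. Blocked intervals of miR-30d-5p (-0.21 to 0.10), miR-30c-5p (-0.08 to 0.23) and miR-30e-5p (-0.19 to 0.10) included 0 as well.

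MiR-30b-5p had the lowest p of the family. Its counts were 5627, 7048 and 6983 in the controls and 5194, 4837 and 7012 in the BDNF samples. Group means were 585 ± 40.2 and 488 ± 51.1 normalized RPM (SD, n = 3 each), and the BDNF to control ratios within replicate numbers 1 to 3 were 0.883, 0.750 and 0.872. The log2 fold change was -0.26 (SE 0.11, interval -0.53 to 0.01), with an edgeR p of 0.0538 and an adjusted p of 0.999. It ranked 13 of 336 by p. With the replicate number as a block, the edgeR p was 0.00679 and the adjusted p 0.166, so that 1 of 9 members passed at an unadjusted p of 0.05, beside 20.5% of all miRNAs tested. Without BDNF replicate 3, the log2 fold change was -0.34 and the unadjusted edgeR p was 0.0230.

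Among the 3p strands, miR-30e-3p had a log2 fold change of 0.08 (interval -0.30 to 0.46), miR-30d-3p of 0.07 (interval -0.33 to 0.48) and miR-30a-3p of 0.00 (interval -0.35 to 0.35). The sign for miR-30a-3p turned with the scaling, to 0.03 with upper-quartile scaling. MiR-30c-2-3p had means of 219 ± 7.24 and 208 ± 1.78 normalized RPM (SD, n = 3 each), a log2 fold change of -0.08 (interval -0.30 to 0.15) and an edgeR adjusted p of 0.999. It was the 1 member of 9 whose groups did not overlap, beside 7.14% of all miRNAs tested. Within replicate numbers, 3 members (miR-30b-5p, miR-30c-2-3p and miR-30e-5p) were lower in BDNF in all 3 pairs, beside 23.8% of all miRNAs tested. MiR-30e-3p was higher in all 3 pairs, 1 of 9 beside 16.1% of all miRNAs tested.

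**Figure D2:**
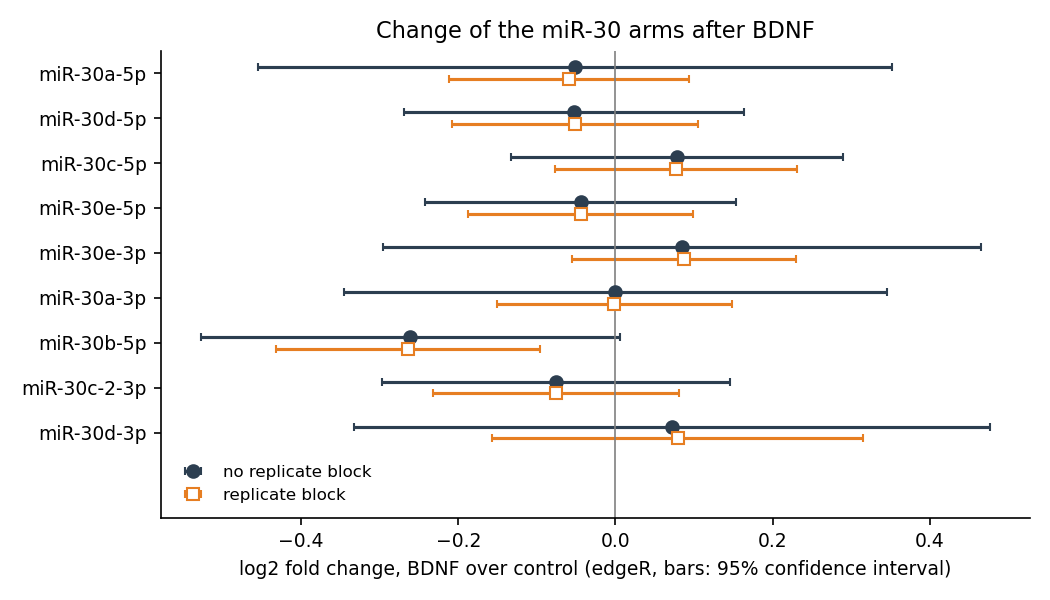
Log2 fold change (BDNF against control) of the 9 members with 95% intervals from the edgeR fits without and with the replicate number as a block. All intervals without the block include 0, and the interval of miR-30b-5p lies below 0 only with the block (-0.43 to -0.10).

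MiR-384-5p, a miRNA outside the family with the same seed, had 301, 393 and 399 normalized RPM in the controls and 288, 308 and 323 in the BDNF samples. The groups overlapped, at 365 ± 55.2 and 306 ± 17.6 normalized RPM (SD, n = 3 each). Its log2 fold change was -0.25 (SE 0.14), with an edgeR p of 0.105 and an adjusted p of 0.999, and it passed unadjusted only with the block (edgeR p of 0.0140, adjusted p of 0.166). Its value was thus close to that of miR-30b-5p, whereas the other 5p strands of the family lay between -0.05 and 0.08.

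A further list of 10 miRNAs known for acting on Bdnf mRNA was set beside the family, and 6 of them passed the filter. Unadjusted edgeR p-values were under 0.05 for 1 of the 6, miR-16-5p, beside 2.98% of all miRNAs tested. Its log2 fold change was -0.41 (edgeR p of 0.00652 and adjusted p of 0.999). The study picked miR-16-5p from these same samples, and also reported it lower by RT-PCR after 10 min of BDNF. With the block, miR-195-5p, from the same family as miR-16-5p, also passed unadjusted (log2 fold change -0.31, edgeR p of 0.0238 and adjusted p of 0.178), which made 2 of 6 beside 20.5% of all miRNAs tested. Values for the others were -0.12 for miR-191a-5p, -0.10 for miR-22-3p, 0.09 for miR-124-3p and 0.02 for miR-15a-5p. The median over the 6 was -0.11, beside -0.0015 for all miRNAs tested, and 0 of 6 passed after adjustment in edgeR. MiR-1-3p, miR-206-3p, miR-10b-5p and miR-155-5p were below the filter, with miR-206-3p the highest of them at 7.14 to 10.5 normalized RPM.

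Same-numbered samples of both groups deviated together, so the replicate numbers were tested as well. An edgeR test of the replicate numbers, with treatment in the model, passed at an adjusted p of 0.05 for 3 of 9 members, beside 48.2% of all miRNAs tested. The median F was 2.997 in the members and 5.67 in all miRNAs tested. The 3 members were miR-30a-5p (edgeR adjusted p = 0.00721), miR-30e-3p (adjusted p = 0.00651) and miR-30a-3p (adjusted p = 0.0142). Each was lowest in replicate 3 of both groups. From replicate 1 to replicate 3 the log2 difference was -0.47 for miR-30a-5p, -0.42 for miR-30e-3p and -0.34 for miR-30a-3p. Only miR-30a-5p passed when control replicate 3 or BDNF replicate 3 was left out, with edgeR adjusted p-values of 0.0273 and 0.0482. With library size as the only scaling, miR-30a-3p (edgeR adjusted p = 0.158) and miR-30e-3p (0.0723) did not pass, whereas miR-30a-5p (0.0450) and miR-30b-5p (0.0143) did.

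Both strands of the miR-30a precursor were thus in the set, but of the miR-30e precursor only the 3p strand. MiR-30e-5p had an edgeR adjusted p of 0.769, and its 6 values lay between 5174 and 5571 normalized RPM. MiR-30d-5p (edgeR adjusted p = 0.769), miR-30c-5p (0.737), miR-30c-2-3p (0.915), miR-30b-5p (0.165) and miR-30d-3p (0.115) did not pass either. The non-member strands passed and went the other way: from replicate 1 to replicate 3 the log2 difference was 0.51 for miR-30b-3p (edgeR adjusted p = 0.0144) and 0.44 for miR-30c-1-3p (adjusted p = 0.0279).

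Marker miRNAs moved with the replicate numbers too. MiR-21-5p was at 7327 and 8064 normalized RPM in replicate 1 (control and BDNF), 6934 and 7247 in replicate 2 and 5154 and 5165 in replicate 3, with an edgeR adjusted p of 0.00220. MiR-146a-5p, the other marker of glia and reactive cells, was instead lowest in replicate 2 of both groups (edgeR adjusted p = 0.0158). It had 19.1 and 16.1 normalized RPM in replicate 1, 10.3 and 11.6 in replicate 2 and 15.1 and 13.3 in replicate 3. The neuronal list of 5 summed to 388537 and 445173 in replicate 1, 412641 and 410021 in replicate 2 and 311022 and 348150 in replicate 3, a sum made mostly of miR-9a-5p (edgeR adjusted p = 0.0129). Of the other neuronal markers, miR-138-5p went the other way, with a log2 difference of 0.43 from replicate 1 to replicate 3 (edgeR adjusted p = 0.0129), and miR-124-3p (0.502), miR-128-3p (0.199) and miR-137-3p (0.105) did not pass. The endothelial list of 2 summed to 102 and 105, then 90.5 and 74.2, then 79.3 and 73.9 normalized RPM. Other lists were low, with the oligodendrocyte lineage list of 3 at 29.0 to 38.6 and the muscle list of 3 at 11.0 to 16.1 normalized RPM. The part of the cell makeup in the members' differences between replicate numbers was not tested.

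**Figure D3:**
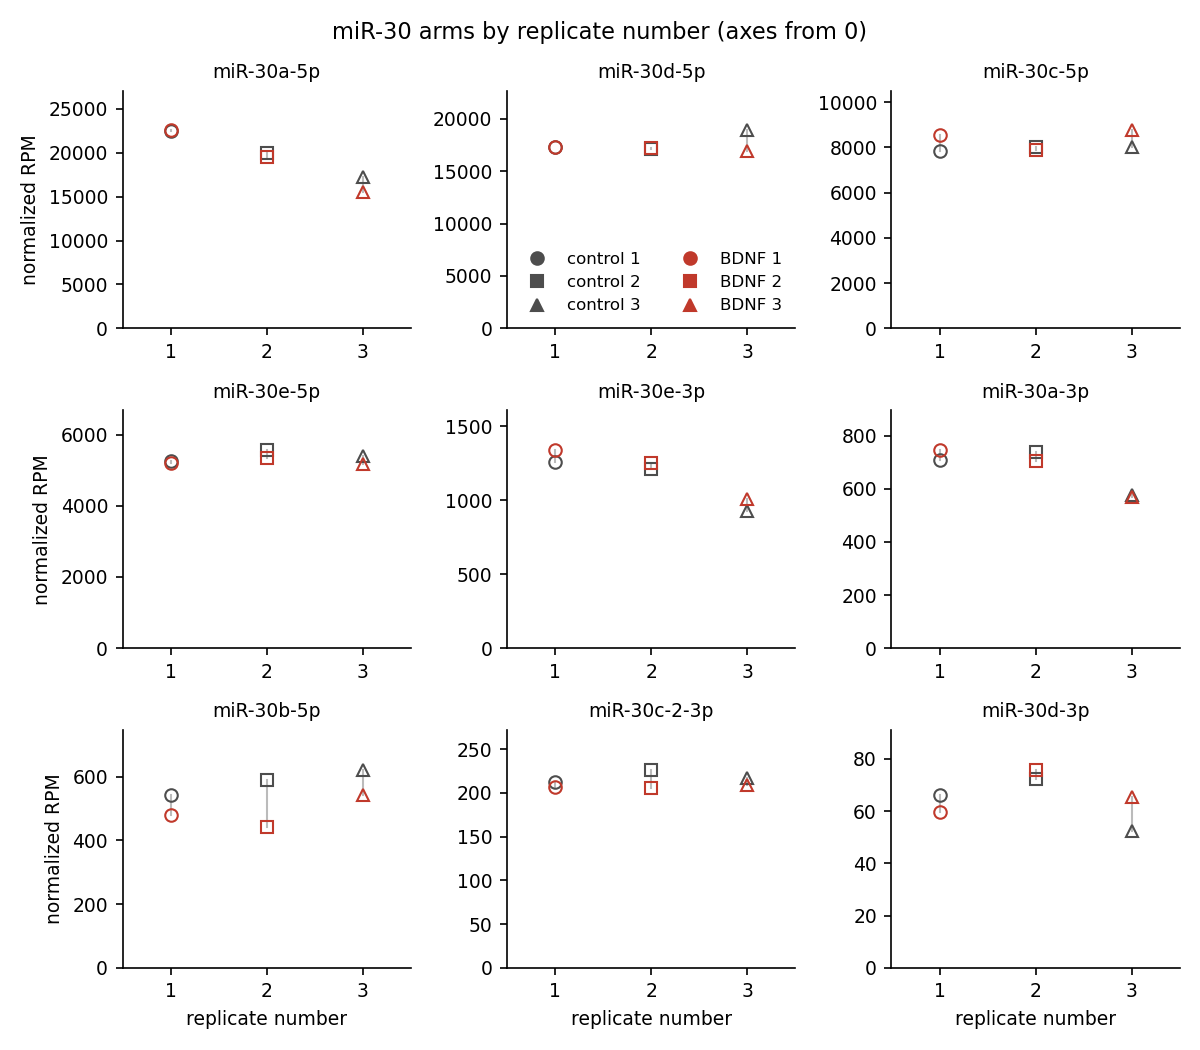
Normalized RPM of each member by replicate number, as points for the control and BDNF sample of each number. MiR-30a-5p, miR-30a-3p and miR-30e-3p are lowest in replicate 3 of both groups (for miR-30a-3p, 576 and 571 normalized RPM), whereas miR-30e-5p stays between 5174 and 5571.

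The spread between samples of a group also differed among members. The coefficient of variation in controls was lowest for miR-30c-5p (1.13%), miR-30e-5p (2.85%) and miR-30c-2-3p (3.31%), and highest for miR-30d-3p (16.2%), miR-30e-3p (15.7%) and miR-30a-5p (13.4%). In BDNF samples it was lowest for miR-30c-2-3p (0.857%) and miR-30d-5p (0.932%), and highest for miR-30a-5p (18.4%). The members' median was 6.87% in controls and 10.5% in BDNF samples, beside 13.4% and 11.9% for all miRNAs tested. The members and all miRNAs tested were not matched for level, so these medians are a description.

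The ratio of 5p to 3p reads describes how far each precursor is represented by its main strand. For miR-30a it was 31.7, 27.0 and 29.8 reads of 5p per read of 3p in the controls and 30.2, 27.6 and 27.2 in the BDNF samples. For miR-30d it was 261, 236 and 361 in the controls and 289, 226 and 259 in the BDNF samples, the highest of the 3 precursors with both strands in the family. For miR-30e it was 4.19, 4.60 and 5.81 in the controls and 3.89, 4.27 and 5.13 in the BDNF samples, the lowest. The groups overlapped for all 3 precursors, and the ratio of miR-30e was lower in BDNF in each pair. Between precursors, the ratios did not overlap.

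Changes in the log2 ratio with BDNF were -0.06 for miR-30a (SE 0.12), -0.13 for miR-30d (SE 0.20) and -0.13 for miR-30e (SE 0.16), each with a limma adjusted p of 0.956. In that test 0 of the 3 precursors passed at an unadjusted p of 0.05, beside 3.61% of the 83 precursors tested. With the replicate block the count was also 0 of 3, beside 12.0% of all precursors tested. MiR-30b, whose 3p strand is not a member, had ratios of 15.8, 12.6 and 13.2 in the controls and 14.3, 10.7 and 11.0 in the BDNF samples, with a change of -0.21 (SE 0.18, limma adjusted p = 0.956). MiR-30c-5p per read of miR-30c-2-3p gave 36.9, 35.3 and 36.9 in the controls and 41.2, 38.2 and 41.8 in the BDNF samples. These values did not overlap between groups, whereas miR-30c-5p per read of miR-30c-1-3p ran from 230 to 282 in the controls and from 221 to 318 in the BDNF samples. Both Mir30c1 and Mir30c2 give the 5p strand, so these ratios are a description and were not tested. Overlap of ratios between groups was not counted over the 83 precursors, so the separation seen with miR-30c-2-3p has no like background.

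**Figure D4:**
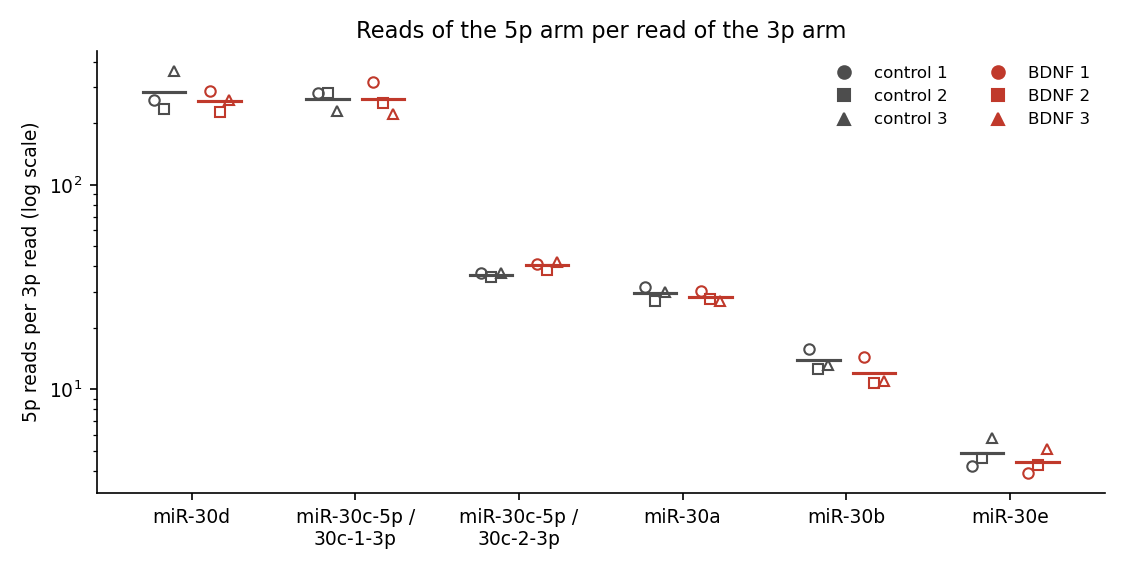
Reads of the 5p strand per read of the 3p strand (log axis) for the miR-30 precursors in each of the 6 samples, with horizontal lines for group means. Ratios run from 3.89 to 5.81 for miR-30e to 226 to 361 for miR-30d, and control and BDNF ranges overlap within miR-30a, miR-30d and miR-30e.

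Shares within an arm class need no scaling between samples. Of the 5p reads of the family, miR-30a-5p took 42.1%, 38.9% and 34.3% in the controls and 41.7%, 38.7% and 33.0% in the BDNF samples. MiR-30d-5p took 32.3%, 33.4% and 37.8% in the controls and 31.9%, 34.1% and 36.1% in the BDNF samples. In replicate 3 of both groups, miR-30d-5p therefore took the larger share, and in replicates 1 and 2 miR-30a-5p did. MiR-30b-5p took 1.02%, 1.15% and 1.24% in the controls and 0.887%, 0.878% and 1.16% in the BDNF samples, lower in all 3 pairs but overlapping (exact two-sided permutation p = 0.3). Of the 3p reads, miR-30e-3p took 52.3% to 56.9% and miR-30a-3p 30.8% to 32.8% over the 6 samples. The BDNF samples overlapped the controls for all 9 shares, with exact permutation p-values from 0.2 to 0.9, where 3 samples against 3 cannot give less than 0.1, and this test takes no account of the pairs. Within replicate numbers, 5 of 9 shares moved the same way in all 3 pairs: miR-30a-5p, miR-30b-5p and miR-30c-2-3p were lower in BDNF, and miR-30c-5p and miR-30e-3p higher. Shares were not computed for other miRNAs, so this count has no like background. For levels, 23.8% of all miRNAs tested were lower and 16.1% higher in all 3 pairs. Shares of an arm class also sum to the whole, so they do not move independently.

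The miRNAs outside the family whose levels followed the summed 5p arms most closely were miR-3559-3p (Pearson r = 0.976 on log2 normalized RPM over the 6 samples), miR-542-3p (0.967), miR-379-5p (0.964), miR-380-5p (0.955) and miR-28-3p (0.954). They are the 5 highest of all miRNAs tested, and the 6 points share their libraries and scaling, so these values are a description.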

How the data were processed

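Small RNA libraries of 3 control and 3 BDNF samples were analysed, grouped by the sample labels. The authors removed adapter sequence and reads of poor quality or short length, aligned the rest to the mature miRNAs of the rat with Miraligner, and deposited raw counts for each sample separately. Tool versions and the treatment of reads that fit more than 1 miRNA are not given in the sources used here. The labels give 7 days in vitro, which is used here, whereas a figure legend of the study gives 6 for this sequencing. Counts per isomiR were not analysed here.

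The deposited counts were used unchanged in edgeR 4.0.16 under R 4.3.3 (TMM scaling, quasi-likelihood test, total count as library size), with a filter of 10 RPM in one condition. Normalized RPM are RPM divided by the TMM factor. Intervals of fold changes are 95% intervals. For 83 precursors, limma 3.58.1 was fitted to log2 5p/3p ratios (pseudocount 0.5). P-values were adjusted over all features tested. The fits were run on simulated data, where calls were required only for changes larger than those seen in the members. The simulated treatment changes came without differences between replicate numbers.

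Same-numbered control and BDNF samples deviated together (correlations 0.48 to 0.89), so the numbers of the labels pair the samples, and the fit with the replicate block is given where it changes a call. No samples of the same group were duplicates (chi-square per degree of freedom at least 120), and pairs across groups were not checked in this way. Alternatives were the replicate block, other scalings, DESeq2 1.42.0, limma-voom, other filters and pseudocounts, no variance trend, other denominators of the shares, and leaving out each sample.

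The members, the lists and the rule were chosen with earlier results of these data known. All 9 members are named, with other miR-30 strands, the 5 most alike miRNAs, a list of 10 miRNAs known to act on Bdnf, and the seeds ranked next to the family. MiR-384-5p was named for its shared seed after its values were seen.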

Additional observations from a re-analysis of the deposited data

How the results depend on the processing

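Of 151 values of single strands and precursors under the alternatives, 133 kept their direction and their side of the threshold, 16 changed sign and 2 passed the threshold, both of them miR-30b-5p (-0.26 with the replicate block and -0.34 without BDNF replicate 3). Members at an unadjusted p under 0.05 numbered 0, but 1 with the replicate block (all miRNAs 69 against 10) and 0 to 1 when a sample was left out (all miRNAs 3 to 32: 32 without control replicate 1, 3 without control replicate 2, 5 without BDNF replicate 2 and 6 without control replicate 3). Over all miRNAs the count was 6 with library size only and 5 at 100 RPM. Members that differed between replicate numbers were 3, and 1 to 4 with a sample left out (all miRNAs 66 to 182 against 162), 1 and 66 being the counts without control replicate 3 or BDNF replicate 3. Without BDNF replicate 1, miR-30a-5p was just above the threshold (edgeR adjusted p = 0.0510). With 100 RPM all miRNAs numbered 94. The log2 fold change of miR-30a-3p changed sign to 0.034 with upper-quartile scaling, 0.012 with DESeq2, 0.0049 with no filter and 0.019 at 100 RPM. With a sample left out, it ran from -0.092 to 0.11, that of miR-30a-5p from -0.19 to 0.081, that of miR-30d-5p from -0.079 to 0.0058, that of miR-30d-3p from -0.040 to 0.18 and that of miR-30e-3p from -0.030 to 0.20. The change in the log2 5p/3p ratio then ran from -0.26 to 0.051 for miR-30d and from -0.24 to 0.0032 for miR-30e. Shares with groups apart numbered 0, and 0 to 2 with a sample left out (2 without control replicate 1, BDNF replicate 1 or BDNF replicate 3, and 1 without control replicate 3), whereas 5 of 9 moved the same way in all pairs (replicate block). Shares were not computed for other miRNAs, so the counts of shares have no like background. The block changed no other call on a member. The cause of these changes was not tested. The lowest count behind a member was 587 (miR-30d-3p), and 3 samples per group limit the precision.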
